A study of Caenorhabditis elegans with 2 samples.

Results

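Of the 5560 PQM-1 peaks of the optimal list, 592 (10.6%, exact 95% interval 9.85 to 11.5) had their summit in the promoters of genes on both strands at once. The promoter of a protein-coding gene was taken as the 1000 bp before its 5′ end together with the first 250 bp of the gene, in the Ensembl annotation of WBcel235, the assembly also called ce11. A peak was taken as divergent where its summit lay in the promoter of at least 1 plus-strand gene and at least 1 minus-strand gene. These 592 peaks were 21.5% (19.98 to 23.1) of the 2753 peaks with a summit in any such promoter, and the other 2161 promoter peaks touched genes of a single strand. Position alone chose them, so signal, sequence and replicate overlap were free to differ.

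The peaks come from chromatin immunoprecipitation with sequencing of eGFP-tagged PQM-1 in whole Caenorhabditis elegans at the third larval stage (L3). All worms were of strain OP201, which has the genotype unc-119(tm4063) III; wgIs201, so a tagged pqm-1 transgene was present in an unc-119 mutant background in every library. The sexes were pooled, and 1 group was sampled as 2 biological replicates, with no second condition. Signal from all tissues of the worm was therefore combined, the tagged protein came from a transgene of a single strain, and untagged worms were not analysed here. Each peak carried the authors' signal value, a score whose scale is not stated in the sources used here, and the number of reads behind a peak is unknown.

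PQM-1 is a zinc finger transcription factor that acts in the intestine and is known from worms with altered insulin signalling, where its nuclear localisation runs opposite to that of the FOXO factor DAF-16. The heptamer TGATAAG, called the DAF-16-associated element, has been linked to PQM-1 and resembles the GATA sites used by intestinal factors. In a divergent promoter, genes on opposite strands start back to back and share the sequence between them, so a factor bound there cannot be assigned to either gene by position. Many worm messages are trans-spliced to a leader, and the annotated 5′ end can then lie downstream of the true transcription start.

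The strongest divergent peaks with the element are shown first, as the summit with 50 bases to each side on the plus strand of the RefSeq WBcel235 sequence. Each pair of genes is written with the minus-strand gene first. Capitals mark TGATAAG, or CTTATCA where it lies on the minus strand. The windows are chrX:11727896-11727996 for gst-42/D1053.2, chrV:17659371-17659471 for fbxa-108/dgat-2, chrV:5433205-5433305 for F08F3.8/acl-6, chrIII:833120-833220 for ceeh-1/zip-2, chrII:12768400-12768500 for vps-2/tiar-2 and chrV:12002324-12002424 for gcy-33/cpr-9.
gst-42/D1053.2: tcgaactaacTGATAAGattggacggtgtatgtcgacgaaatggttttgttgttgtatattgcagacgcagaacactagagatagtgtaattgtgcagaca
fbxa-108/dgat-2: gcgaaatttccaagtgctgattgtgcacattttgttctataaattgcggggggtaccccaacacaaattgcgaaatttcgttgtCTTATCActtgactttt
F08F3.8/acl-6: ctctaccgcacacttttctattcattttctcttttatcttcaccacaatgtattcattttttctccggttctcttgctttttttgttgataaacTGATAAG
ceeh-1/zip-2: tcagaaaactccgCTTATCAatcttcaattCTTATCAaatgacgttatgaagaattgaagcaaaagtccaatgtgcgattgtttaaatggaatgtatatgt
vps-2/tiar-2: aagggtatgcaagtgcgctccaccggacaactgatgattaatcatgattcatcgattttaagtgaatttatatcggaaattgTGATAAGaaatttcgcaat
gcy-33/cpr-9: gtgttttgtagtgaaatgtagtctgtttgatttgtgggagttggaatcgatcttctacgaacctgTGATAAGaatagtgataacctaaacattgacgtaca

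The strongest divergent peaks without TGATAAG are shown to set beside them. Capitals here mark CTCTCTC, the minus-strand form of GAGAGAG, and the windows with no capitals held none of the 5 motifs counted below. They are chrIV:7188999-7189099 for C42D4.13/srlf-7, chrIV:4750015-4750115 for rpl-20/Y17G9B.5, chrV:11573047-11573147 for H12C20.7/nhr-68 and chrIV:854483-854583 for lem-4/Y55F3BR.11.
C42D4.13/srlf-7: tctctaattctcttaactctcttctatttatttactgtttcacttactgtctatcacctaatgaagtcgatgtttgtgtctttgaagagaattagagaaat
rpl-20/Y17G9B.5: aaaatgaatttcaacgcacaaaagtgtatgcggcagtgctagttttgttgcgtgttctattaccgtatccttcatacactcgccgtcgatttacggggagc
H12C20.7/nhr-68: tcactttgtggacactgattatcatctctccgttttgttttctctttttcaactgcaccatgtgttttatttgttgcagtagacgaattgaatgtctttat
lem-4/Y55F3BR.11: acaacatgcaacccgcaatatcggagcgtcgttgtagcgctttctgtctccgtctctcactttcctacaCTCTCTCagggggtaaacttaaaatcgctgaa

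The set first shown was chosen for the element, which stood in 2 copies at ceeh-1/zip-2. Among all 592 divergent summits, 71 had it. It occurred in 2.36% of windows of the same length tiled through the sequence shared by both strands' promoters.

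The label of a divergent promoter was checked against the position of each summit. In 531 of 592 peaks (89.7%, 86.96 to 92.03) the summit lay between head-to-head 5′ ends. In 60 it lay within the transcribed first 250 bp of one gene and upstream of the other, and in 1 it lay 95 bp upstream of F37C12.10 and 122 bp inside F37C12.21, genes whose 5′ ends overlap. Promoters of exactly 2 genes were touched by 563 peaks, of 3 genes by 28 and of 4 genes by 1. The peaks fell on 578 gene pairs, of which 14 had 2 divergent peaks. No divergent peak lay within 20 kb of pqm-1 or unc-119, the genes carried by the transgene.

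The summit sat close to the nearer of its 5′ ends. The median distance to the nearer end was 141.5 bp (middle 50% of peaks 65 to 216) at divergent promoters, against 206 bp (96 to 444) at promoters of one strand. The farther end of the divergent pairs was a median of 419 bp away (257.75 to 679.25). The rule limits these distances and a summit with ends on both sides has more chances to be near one, so the difference carries no test. With the spacing of each pair divided into steps of 10%, 13.4% of the 531 summits between 5′ ends lay within the first step from the nearer end, followed by 19.02%, 21.1%, 20.7% and 25.8% in the steps that lead to the midpoint. In pairs over 1000 bp apart the rule itself keeps summits away from the ends. Among the 447 summits of pairs within 1000 bp, a split made after the data were seen, the shares were 14.8% (11.6 to 18.4), 17.9%, 21.03%, 21.5% and 24.8% (20.9 to 29.1), where an even spread gives 20% in each step. The nearer gene was on the plus strand for 320 of 592 peaks (54.1%, 49.9 to 58.1).

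**Figure D1:**
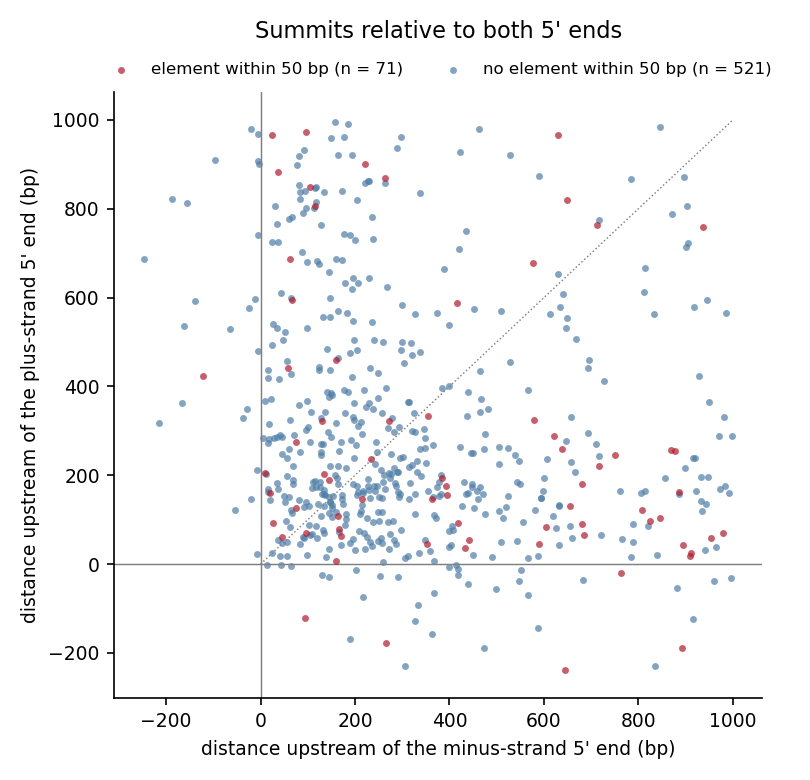
Distance of each of the 592 divergent summits upstream of the minus-strand 5′ end (x axis, bp) and of the plus-strand 5′ end (y axis, bp). Negative values lie inside the gene, the dotted line marks equal distance, and the 71 peaks with the DAF-16-associated element within 50 bp are drawn in red and the other 521 in blue. Most points have positive values on both axes, between head-to-head 5′ ends.

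At the limit of the window, 24 peaks had their farther 5′ end 951 to 1000 bp away and a median signal of 32.0 (23.8 to 115.7). A further 24 peaks that failed only by lying 1001 to 1050 bp from the farther end had a median signal of 38.2 (23.99 to 151.7). On the gene side, 4 peaks lay 226 to 250 bp downstream of a 5′ end, with a median of 31.6, and none lay 251 to 275 bp downstream.

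Sequence shared by promoters of both strands held summits more densely than other promoter sequence. It covers 2.23 Mb, 2.22% of the genome, and held 265 summits per Mb, against 107.5 per Mb in the 20.1 Mb of promoters of a single strand and 36.0 per Mb outside promoters. The ratio of the first pair of densities was 2.47 (95% interval 2.25 to 2.71, counting error only). It was above 1 on each chromosome, at 3.10 on I, 2.11 on II, 3.03 on III, 2.47 on IV, 2.56 on V and 1.74 on X. Among promoter peaks on X, 30 of 467 (6.42%, 4.38 to 9.04) were divergent, against 19.8% to 30.1% on the 5 autosomes. X also had few head-to-head pairs, 178 against 385 to 663 on the autosomes, and a shared summit in 28 of them (15.7%, 10.7 to 21.9). The pairs with a shared summit made up between 18.9% on II and 27.5% on III of those on each autosome.

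The same question was asked of genes. The genome held 2560 neighbouring head-to-head pairs with 5′ ends up to 2000 bp apart, and 574 of them (22.4%, 20.8 to 24.1) had an optimal summit in both promoters. A gene of a head-to-head pair had a summit in its own promoter in 1347 of 5120 cases (26.3%, 25.1 to 27.5), against 3260 of all 19973 protein-coding genes (16.3%), and a gene whose promoter met no promoter of the other strand had one in 1834 of 14311 cases (12.8%, 12.3 to 13.4). Of the 3260 bound genes, 1186 (36.4%, 34.7 to 38.1) had a divergent peak. A shared summit counts for both genes of its pair, so the 574 pairs put both of their genes among the 1347. A paired gene can thus be counted through a summit that belongs to its neighbour on the other strand. How much of the higher share of paired genes comes from this was not tested. The 36.4% likewise counts each divergent peak for genes of both strands, and these intervals treat paired genes as independent. On the authors' longer pooled list, which includes weaker peaks, 1208 pairs (47.2%) had a shared summit.

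Pairs at middle distances held a shared peak most often. The share was 19.3% (15.4 to 23.7) of the 373 pairs with 5′ ends 1 to 250 bp apart, 33.5% (29.5 to 37.6) of the 544 pairs at 251 to 500 bp, 28.7% of the 477 at 501 to 750 bp and 29.6% of the 351 at 751 to 1000 bp. It was 13.9% (10.96 to 17.3) of the 489 pairs at 1001 to 1500 bp and 3.37% (1.70 to 5.96) of the 326 at 1501 to 2000 bp. The sequence in which a summit can be shared differs between these classes, with a median of 674 bp in the closest, 1134 bp at 751 to 1000 bp and 263.5 bp in the widest. Per Mb of shared sequence, the classes held 290, 387, 260, 282, 190 and 134 summits from the closest to the widest. The class of 251 to 500 bp was thus highest by both measures. Pairs with a shared peak were a median of 554.5 bp apart, against 743.5 bp for pairs without one.

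**Figure D2:**
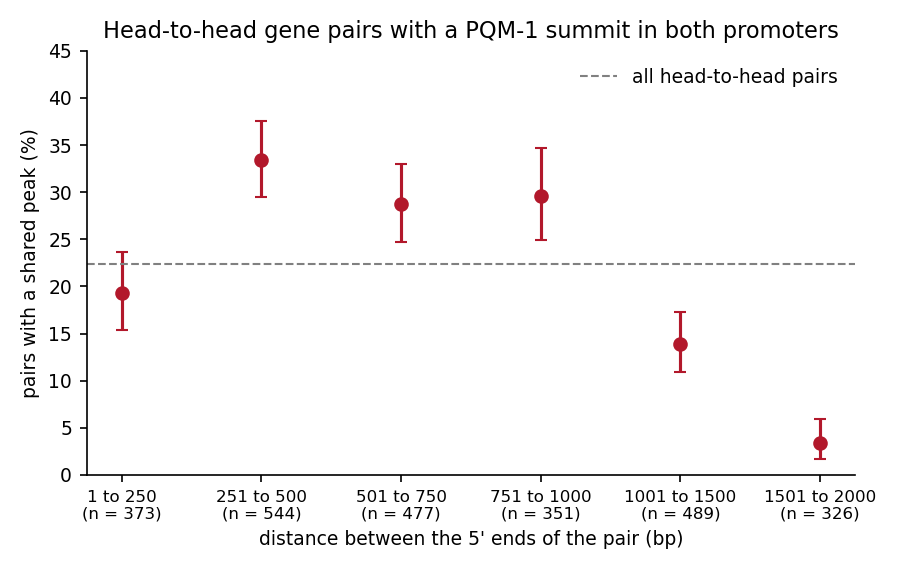
Share of head-to-head gene pairs with an optimal PQM-1 summit in both promoters (y axis, %), by the distance between their 5′ ends (x axis, bp, number of pairs in brackets). Points are shares with exact 95% intervals and the dashed line is the 22.4% of all 2560 pairs; the pairs 251 to 500 bp apart are highest, at 33.5%, and those beyond 1500 bp lowest, at 3.37%.

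Divergent peaks were less often among the strongest peaks. Their median signal was 40.9 (middle 50% of peaks 30.8 to 59.4, highest 242.0), against 44.3 (32.4 to 67.6, highest 345.7) for promoter peaks of one strand. The strongest 25% of the optimal list, 1390 peaks, took in 115 of 592 divergent peaks (19.4%) and 562 of 2161 promoter peaks of one strand (26.01%), a difference of -6.58 percentage points (95% interval -10.1 to -2.75). Divergent peaks were 14 of the strongest 100 promoter peaks, 84 of the strongest 500 (16.8%) and 126 of the weakest 500 (25.2%). The difference did not hold in either replicate alone. Among the strongest 5560 peaks of each replicate's own list, it was -4.12 points (-8.43 to 0.574) in replicate 2 and -2.998 points (-6.63 to 0.904) in replicate 1.

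Nearly every divergent peak was met by a peak of replicate 1, and fewer by one of replicate 2. A peak of replicate 1 overlapped 591 of 592 divergent peaks and 2160 of 2161 promoter peaks of one strand. A peak of replicate 2 overlapped 527 divergent peaks (89.0%) and 2029 promoter peaks of one strand (93.9%), with 93.5% over all optimal peaks. The difference was -4.87 points (-7.80 to -2.35). It lay among the weaker peaks, at 0.178 points in the strongest 25% of the list, 1.06 in the next 25%, -5.02 (-11.3 to -0.235) in the 25% after that and -10.1 (-17.8 to -3.19) in the weakest 25%. Among the stronger 50% of optimal peaks it was 0.512 points, and taking the strongest peaks of replicate 2 against the list of replicate 1, an alternative chosen after the data were seen, gave 3.10 points (0.346 to 5.22) in the other direction. The optimal list is named for a threshold on the irreproducible discovery rate, a measure of how well ranked replicate lists agree. These overlaps therefore describe peaks already kept by that step. Being kept did not mean a peak on the lists of both replicates, as 65 divergent peaks had no overlapping peak of replicate 2.

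The divergent summits lay a median of 6 bp from that of the overlapping peak in replicate 1 (591 peaks) and 21 bp from that in replicate 2 (527 peaks). The signal of divergent peaks had a median of 31.8 in replicate 1 and 11.03 in replicate 2, and that of promoter peaks of one strand 33.6 and 12.8. The values of the 2 lists are not on a scale known to be common, so only ranks were compared. Across the 526 divergent peaks seen in both replicates the rank correlation of signal was 0.456, and it was 0.548 across 2028 promoter peaks of one strand. These describe peaks of the same 2 libraries and are not tests over replicates.

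**Figure D3:**
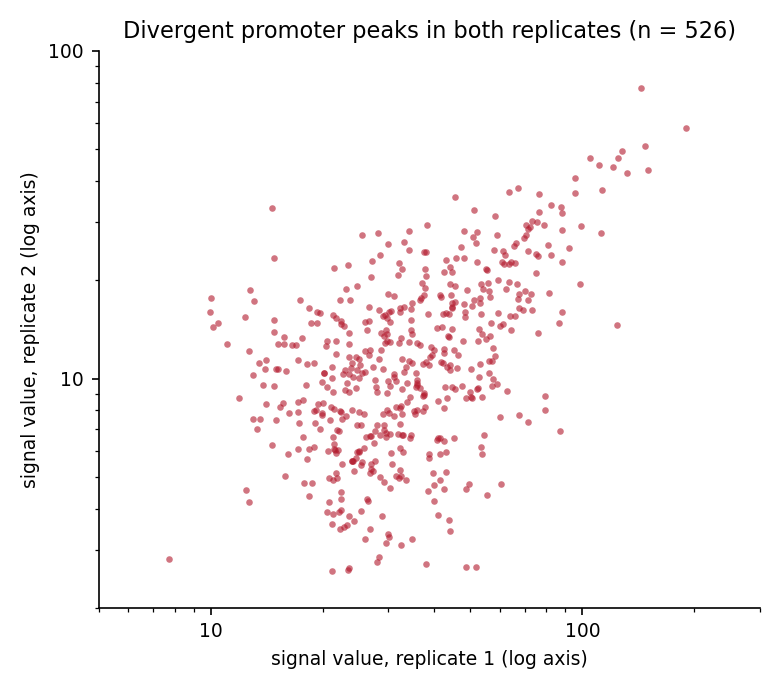
Signal value of the 526 divergent peaks overlapped in both replicates, in replicate 1 (x axis) and replicate 2 (y axis), both on log axes, 1 point per peak. The 4 peaks strongest on the optimal list are high in both replicates, other peaks spread widely, with some above the replicate 1 median of 31.8 near the bottom of replicate 2, and Spearman's rho is 0.456.

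The strongest divergent peak lay 238 bp upstream of srlf-7 and 919 bp upstream of C42D4.13, with a signal of 242.0, rank 13 of the optimal list. Its signal was 189.6 in replicate 1, where it ranked 11, and 58.3 in replicate 2, where it ranked 25. The peak between rpl-20, which encodes a protein of the large ribosomal subunit, and Y17G9B.5 came next with 223.1, and had 144.2 in replicate 1 and 77.1 in replicate 2. It ranked 5 in replicate 2, the highest place of any divergent peak there. The next lay 343 bp upstream of nhr-68, a nuclear hormone receptor gene of the propionate response, and 107 bp upstream of H12C20.7, with 197.1, and 150.5 and 43.3 in replicates 1 and 2. The one after it lay 247 bp inside lem-4 and 686 bp upstream of Y55F3BR.11, with 193.5, and 147.4 and 51.4 in the replicates. All 4 ranked among the first 100 of each replicate.

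The 5 strongest divergent peaks with the element lay beside genes of different kinds. The peak of gst-42, a zeta-class glutathione transferase of tyrosine breakdown, and D1053.2 had its summit 10 bp upstream of gst-42 and a signal of 177.8, with 127.7 and 49.6 in replicates 1 and 2. That of fbxa-108, an F-box gene, and dgat-2, a diacylglycerol acyltransferase gene of fat storage, lay 36 bp upstream of fbxa-108 and 882 bp upstream of dgat-2, with 174.6, and 131.9 and 42.5 in the replicates. The peak of F08F3.8 and acl-6, an acyltransferase gene of glycerolipid synthesis, had 164.5. That of ceeh-1, an epoxide hydrolase gene, and zip-2, a bZIP transcription factor gene of the response to infection, lay 188 bp inside zip-2 and had 155.3. The last of these 5 lay almost at the midpoint of vps-2, a gene of the ESCRT membrane machinery, and tiar-2, an RNA-binding protein gene, at 233 and 236 bp, with a signal of 147.5. In each of these the replicates ordered the peak high, with ranks of 59 to 124 in replicate 1 and 57 to 184 in replicate 2.

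Other peaks of the 20 strongest included those of iff-2, which encodes the translation factor eIF5A, with F54C9.14 (172.2), eef-1A.1, which encodes an elongation factor, with rfc-4, a gene of the replication factor C clamp loader (125.6), and rpl-15 with K11H12.8 (118.2). The peak of ska-3, a kinetochore gene, and rps-12, a gene of the small ribosomal subunit, had 116.7. The peak of rheb-1, a small GTPase gene, and spk-1, a kinase gene for splicing factors, had 127.5, and that of dlc-1, a dynein light chain gene, and nduf-2.2, a complex I gene, had 115.7. The others were nlt-1 with ZK892.3 (148.5), gcy-33, a guanylate cyclase gene, with cpr-9, a cathepsin B family gene (145.4), K01G5.10 with tasp-1 (139.1), nhl-2 with tag-340 (133.0) and C06B3.6 with C06B3.7 (118.7). Among all 20, the K01G5.10/tasp-1 peak stood lowest in replicate 2, with a signal of 14.5 and rank 2223, against 124.2 and rank 76 in replicate 1.

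The DAF-16-associated element was less frequent at divergent summits than at other promoter summits. TGATAAG, read on either strand within 50 bp of the summit, was present at 71 of 592 divergent peaks (12.0%, 9.49 to 14.9) and at 533 of 2161 promoter peaks of one strand (24.7%, 22.9 to 26.5), a difference of -12.7 percentage points (-15.7 to -9.30). It was present at 25.8% of the 2807 peaks outside promoters and at 23.9% of all optimal peaks. Tiled windows of the same length held it in 2.36% of 20747 cases in the sequence shared by both strands' promoters, and in 2.19% of 191138 cases in promoters of one strand. Divergent summits thus had the element more often than the sequence around them, and less often than other summits. The difference was seen in the strongest 5560 peaks of each replicate, with 11.5% against 24.3% in replicate 1 and 11.9% against 19.99% in replicate 2.

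The difference was present at every level of signal. In the strongest 25% of the list 26 of 115 divergent peaks (22.6%) and 198 of 562 promoter peaks of one strand (35.2%) had the element, a difference of -12.6 points (-20.4 to -3.34). Going down the list in steps of 25%, it was then -13.3 (-18.9 to -6.35), -7.61 (-13.3 to -0.655) and -12.9 points (-17.1 to -7.61). By distance of the summit from its nearer 5′ end, it was -16.9 points inside the gene, -17.2 at 1 to 100 bp upstream and -12.7 from there to 250 bp. At 251 to 500 bp it was -4.90 points (-11.7 to 4.92) and at 501 to 1000 bp -9.71 (-20.2 to 7.996), both with intervals that include 0. By chromosome it was -13.8, -14.5, -16.0, -21.0 and -8.90 points on I to V, each with an interval below 0. On X it was 0.191 points (-9.87 to 17.4), from 5 of 30 divergent peaks and 72 of 437 of the others.

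**Figure D4:**
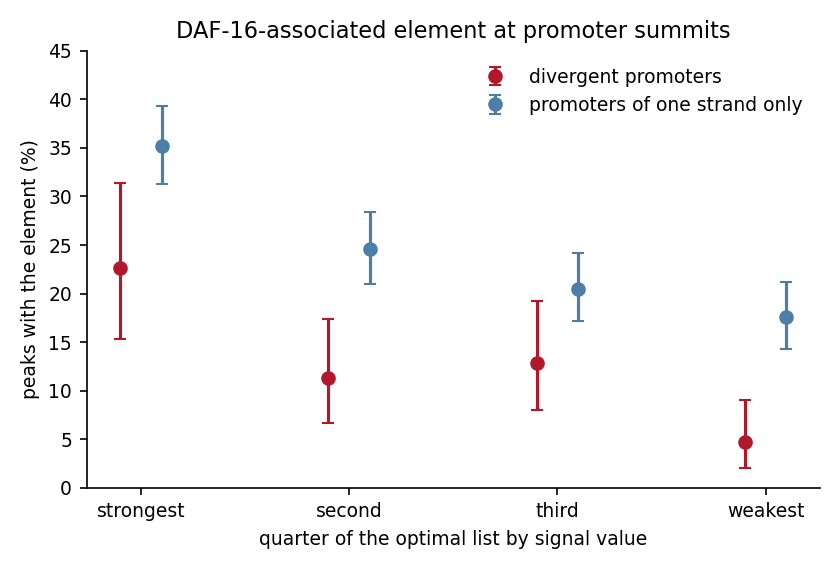
Share of peaks with the DAF-16-associated element within 50 bp of the summit (y axis, %) at divergent promoters (red) and at promoters of one strand only (blue), by 25% of the optimal list from strongest to weakest signal (x axis). Points are shares with exact 95% intervals; divergent peaks are lower in each, at 22.6% against 35.2% in the strongest 25%.

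Base composition moved with this difference. The median GC content of the summit windows was 42.6% at divergent promoters and 38.6% at promoters of one strand, while the tiles of both kinds of promoter had 34.7%. Divergent summits with the element had a median of 35.6% and those without it 44.6%, against 35.6% and 40.6% at promoters of one strand. Within classes of like GC content the difference in the element was -14.2 points (-26.8 to 1.63) under 30%, -3.06 (-14.1 to 9.61) at 30 to 35%, -12.5 (-19.9 to -3.54) at 35 to 40%, -10.7 (-16.1 to -3.31) at 40 to 45% and -4.06 (-6.41 to -1.27) at 45% and over. It was below 0 in each class, and its interval included 0 in the lowest 2. Beyond these classes, the part of base composition in the difference was not tested.

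Sites were sought within 50 bp of the summit, so their closeness to it is set by the window. Of the 71 divergent peaks with it, 62 had a single site, with its centre a median of 20.5 bp from the summit. The site lay on the strand of the nearer gene in 20 of these 62 (32.3%, 20.9 to 45.3), and in 206 of 471 single-site promoter peaks of one strand (43.7%, 39.2 to 48.4). CTTATCA was therefore the more common reading along the nearer gene in both classes. The intervals of both classes overlap, and no interval of their difference was computed.

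The other motifs had smaller differences. AGATAA, another site of GATA factors, was at 7.60% of divergent peaks and 12.5% of promoter peaks of one strand, a difference of -4.89 points (-7.27 to -2.13), with 6.77% and 6.44% in the tiles. No site was counted as both AGATAA and the element, which differ in letters. GAGAGAG, a simple repeat, was at 5.41% and 8.42%, a difference of -3.02 points (-5.01 to -0.624), with 1.499% and 1.62% in the tiles. GTAAACA, the site of FOXO factors such as DAF-16, was at 2.70% and 3.79%, and the interval of the difference included 0 (-2.46 to 0.704). CACGTG, an E-box, was at 3.21% and 4.44%, again with an interval that included 0 (-2.72 to 0.686). All motifs were read on both strands, and 162 of 592 divergent peaks had at least 1 of the 5.

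Other heptamers were more frequent at divergent summits. All 8176 heptamers were ranked by the difference between divergent peaks and promoter peaks of one strand, so those at the top were chosen by their values and carry no test. CGAGACC led, at 53 divergent peaks (8.95%) and 44 promoter peaks of one strand (2.04%), with 1.38% and 0.966% in the tiles. CGCTCCA was at 8.61% and 1.94%, with 1.07% and 0.659% in the tiles. ACCGTAC was at 5.91% and 0.694%, while TACCGTA was at 6.08% and 0.925%. GAGACCC and GCGAGAC overlap the leading heptamer, as GCGCTCC overlaps the second. TGATAAG was last of all, which restates its difference of -12.7 points given above and is no further support. The ranking is by difference in share, so heptamers that are frequent at summits can reach larger differences. The 3 strongest divergent windows with the leading heptamer are given here to show where it stands, chosen after its values were seen, with CGAGACC or its minus-strand form GGTCTCG in capitals. They are chrII:8185139-8185239 for mig-5/cct-1, chrIII:8447118-8447218 for hsp-110/rpn-3 and chrV:5684690-5684790 for hmgs-1/F25B4.4.
mig-5/cct-1: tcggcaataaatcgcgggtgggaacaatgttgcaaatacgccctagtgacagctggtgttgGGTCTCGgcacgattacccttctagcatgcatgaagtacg
hsp-110/rpn-3: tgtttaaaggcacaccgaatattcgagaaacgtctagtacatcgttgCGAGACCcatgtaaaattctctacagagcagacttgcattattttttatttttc
hmgs-1/F25B4.4: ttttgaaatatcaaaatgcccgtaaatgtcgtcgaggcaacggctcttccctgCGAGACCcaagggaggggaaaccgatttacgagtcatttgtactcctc

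These windows lie between mig-5, a Dishevelled gene of Wnt signalling, and cct-1, a chaperonin gene (signal 105.9), between hsp-110, a chaperone gene, and rpn-3, a proteasome gene (99.3), and between hmgs-1, which encodes HMG-CoA synthase, and F25B4.4 (76.8).

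Gene families differed in how often their head-to-head pairs shared a peak. The lists were made from gene names and chosen with earlier results of these data known, so their intervals are descriptions. Each count is of pairs with at least 1 gene of the list, read against the 22.4% of all pairs. Cytosolic ribosomal protein genes stood highest, with 35 of 44 pairs (79.5%, 64.7 to 90.2) and a median signal of 58.8 over their 35 divergent peaks, against 40.9 over all divergent peaks. Their strongest peaks after rpl-20/Y17G9B.5 were those of rpl-15/K11H12.8 and ska-3/rps-12. Each of the 3 pairs made of 2 ribosomal protein genes had a shared peak. That of rps-14/rpl-36 had a signal of 72.3, with 57.5 and 9.998 in replicates 1 and 2, that of rps-10/rpl-24.1 had 62.3, with 50.04 and 10.7, and that of rpl-39/rps-30 had 58.8, with 37.7 and 21.7. In the 32 divergent peaks with 1 ribosomal protein gene, the summit was nearer to that gene in 11. An even split is the reference for this count, and no interval was computed.

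Other lists of genes used in most cells were also above the 22.4%. Proteasome genes had a shared peak in 12 of 22 pairs (54.5%, 32.2 to 75.6), led by hsp-110/rpn-3 (99.3), pas-4/rpb-3 (56.6) and rpn-9/T06D8.9 (53.6). Splicing genes had one in 13 of 24 (54.2%, 32.8 to 74.4), led by rsp-2/rsp-1, both genes of SR splicing proteins (83.1, with 66.9 and 19.5 in the replicates), clu-1/prp-40 (65.6) and snrp-40.1/F08G12.3 (61.9). Respiratory chain genes had one in 21 of 41 (51.2%, 35.1 to 67.1), led by dlc-1/nduf-2.2 (115.7), atp-3/F27C1.2 (83.5) and mcrs-1/atp-1 (82.1). Translation factor and tRNA synthetase genes had one in 17 of 37 (45.9%, 29.5 to 63.1), led by iff-2/F54C9.14, eef-1A.1/rfc-4 and ctf-4/eef-1G (113.6). The intervals of these 4 lists lay above 22.4%.

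Some lists of this kind had intervals that included 22.4%. Mitochondrial ribosomal protein genes had 9 of 27 pairs (33.3%, 16.5 to 53.96), led by mrps-7/Y57G11C.3 (91.6), rpl-28/mrpl-49 (58.6) and vbh-1/mrpl-17 (53.6). The last had 48.7 in replicate 1 and 2.66 in replicate 2. Genes of protein folding and stress in the endoplasmic reticulum had 5 of 16 (31.2%), led by pdi-3/ubql-1 (79.7), imp-2/enpl-1 (52.3) and sec-61.B/trap-3 (47.1). Vacuolar ATPase genes had 2 of 7 (28.6%), sqv-3/vha-1 (112.6) and C17H12.2/vha-8 (69.4). Histone genes, most of which lie in head-to-head pairs of histone genes, had 4 of 33 (12.1%, 3.40 to 28.2), at his-61/his-62 (44.7), his-67/his-68 (41.8), his-4/his-3 (39.0) and his-60/his-59 (34.98). These 4 peaks were between histone genes on both sides, near-identical copies where placement of reads is uncertain. Any effect of read placement on these counts was not tested.

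**Figure D5:**
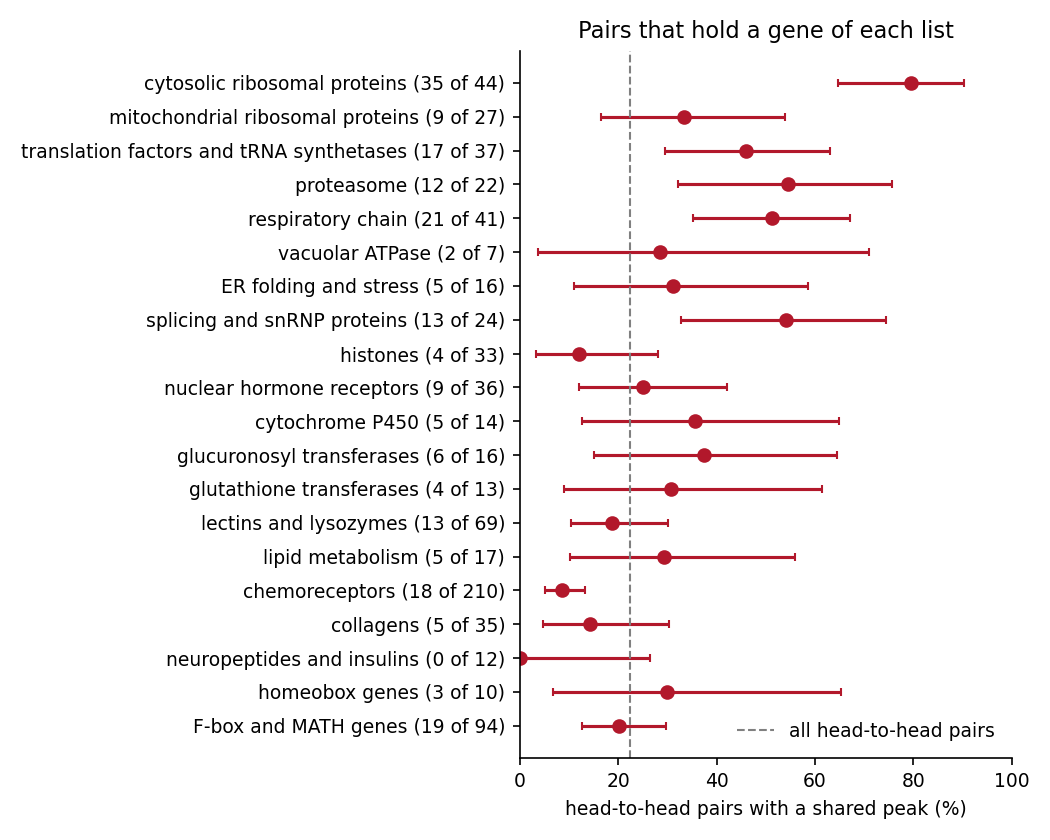
Share of head-to-head pairs with a shared PQM-1 peak (x axis, %) for pairs that hold a gene of each of 20 lists (y axis, pairs with a peak of all pairs in brackets). Points are shares with exact 95% intervals and the dashed line is the 22.4% of all pairs; cytosolic ribosomal protein genes are highest at 79.5% and chemoreceptor genes, at 8.57%, have an interval below the line.

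Tissue-restricted and environment-response families lay around or below the 22.4%. Chemoreceptor genes, the largest family of the worm, had a shared peak in 18 of 210 pairs (8.57%, 5.16 to 13.2), led by F33H12.7/sri-39 (99.7), srh-70/ceh-99 (94.3) and srh-166/Y38H6C.24 (94.1). None of the 43 pairs of 2 chemoreceptor genes had one. Chemoreceptor pairs had a median spacing of 1005 bp, against 678 bp over all pairs and 532.5 bp for cytosolic ribosomal protein pairs. The part of spacing in the shares of these lists was not tested, and counts over closer pairs are given below. Lectin and lysozyme genes, many of them induced by infection, had 13 of 69 (18.8%, 10.4 to 30.1), led by clec-41/dhc-3 (101.4), clec-221/F17C11.6 (79.3) and clc-12/clec-240 (69.4). F-box and MATH genes had 19 of 94 (20.2%, 12.6 to 29.8), led by fbxa-108/dgat-2, fbxa-134/F47H4.2 (75.03) and efl-1/fbxa-90 (70.7). Collagen genes had 5 of 35 (14.3%, 4.81 to 30.3), led by col-151/ugt-1 (49.7), and neuropeptide and insulin genes 0 of 12, with an upper limit of 26.5%. Outside those 12 pairs, the neuropeptide and insulin list had 1 divergent peak, at ins-7/ZK1251.3 (35.4). It had 35.9 in replicate 1 and no overlapping peak in replicate 2. The chemoreceptor list alone had an interval below 22.4%.

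Detoxification and regulatory families had few pairs and wide intervals. Glucuronosyl transferase genes had 6 of 16 pairs (37.5%, 15.2 to 64.6), led by ugt-17/C08B6.2 (97.3), and the summit was nearer to the transferase gene in 6 of their 7 peaks. Cytochrome P450 genes had 5 of 14 (35.7%, 12.8 to 64.9), led by F42A9.17/cyp-33E2 (79.5) and cyp-35A2/exc-13 (73.1). Glutathione transferase genes had 4 of 13 (30.8%, 9.09 to 61.4), led by gst-42/D1053.2, ZK1307.1/gstk-1 (65.8) and gst-36/R07B1.5 (42.1), and the summit was nearer to the transferase gene in each. The gst-36 peak had 46.1 in replicate 1 and no overlapping peak in replicate 2. Other lists went both ways in how often the summit was nearer to the gene of the list. It was nearer in 0 of 5 peaks for collagen genes, 4 of 11 for lectin and lysozyme genes and 7 of 19 for chemoreceptor genes. For respiratory chain genes it was nearer in 8 of 21 and for splicing genes in 4 of 11. Against these stood 8 of 12 for proteasome genes, 6 of 9 for mitochondrial ribosomal protein genes and 3 of 4 for cytochrome P450 genes. Translation genes had 10 of 17, F-box and MATH genes 8 of 14 and nuclear hormone receptor genes 6 of 10. Where neither gene of a pair is favoured, an even split is the reference. No interval was computed for these counts, most of which are small. Lipid metabolism genes had 5 of 17 (29.4%), led by acdh-12/maoc-1, genes of fatty acid breakdown (65.3, with 44.1 and 21.8 in the replicates). Homeobox genes had 3 of 10 (30%), led by malt-1/ceh-38 (96.8), and nuclear hormone receptor genes 9 of 36 (25%), led by H12C20.7/nhr-68. Pairs with no gene of any list had a shared peak in 383 of 1832 cases (20.9%, 19.1 to 22.8).

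The lists were also counted over pairs with 5′ ends up to 1000 bp apart, a split added after the data were seen, since lists differed in spacing. Of all such pairs, 495 of 1745 (28.4%) had a shared peak. Cytosolic ribosomal protein genes had one in 35 of 43 (81.4%, 66.6 to 91.6) and chemoreceptor genes in 11 of 103 (10.7%, 5.45 to 18.3). The intervals of the proteasome (60%, 36.1 to 80.9), splicing (59.1%, 36.4 to 79.3), respiratory chain (54.1%, 36.9 to 70.5) and translation lists (48.5%, 30.8 to 66.5) lay above 28.4%, as did that of lipid metabolism genes, with 5 of 7 pairs (71.4%, 29.04 to 96.3). Those of the other 13 lists included 28.4%. Spacing within this range was not matched.

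The lists also differed in the element at their divergent peaks. Over all divergent peaks it was at 71 of 592 (12.0%), and over all promoter peaks of one strand at 533 of 2161 (24.7%). It was at none of the 35 divergent peaks of cytosolic ribosomal protein genes and at none of their 23 promoter peaks of one strand. It was also at 0 of 17 divergent peaks of translation genes, 0 of 21 of respiratory chain genes and 0 of 14 of splicing genes. Mitochondrial ribosomal protein genes had it at 0 of 9 and proteasome genes at 1 of 12 (8.33%). Counts this small are imprecise, and the proteasome share is near that over all divergent peaks. Chemoreceptor genes had it at 9 of 19 divergent peaks and 6 of 16 of one strand, and lectin and lysozyme genes at 6 of 13 and 22 of 55. F-box and MATH genes had it at 6 of 19 and 19 of 43, and glutathione transferase genes at 3 of 4 and 1 of 12. For nuclear hormone receptor genes the counts were 2 of 10 and 16 of 61, and for collagen genes 0 of 5 and 0 of 3. Genes of folding and stress in the endoplasmic reticulum had 1 of 6 and 0 of 12. Joined after these values were seen, the first 8 lists, from ribosomal proteins to splicing, had the element at 2 of 110 divergent peaks (1.82%) and 1 of 76 of one strand (1.32%). The 11 lists from nuclear hormone receptors to F-box and MATH genes had it at 30 of 85 (35.3%) and 90 of 280 (32.1%). Of the promoter peaks of the first 8 lists 59.1% were divergent, and of those of the 11 lists 23.3%. Over all promoter peaks the share was 21.5%. A divergent peak touches at least 2 genes and so has more chances to hold a gene of a list. The shares of the lists are therefore not directly comparable with the 21.5%. Peaks with no gene of any list had the element at 39 of 395 divergent peaks (9.87%) and 442 of 1802 of one strand (24.5%). Median GC content at the divergent summits was 49.5% for cytosolic ribosomal protein genes, 37.6% for chemoreceptor genes and 35.6% for lectin and lysozyme genes.

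More pairs had both genes in 1 list. The lectin genes clec-62/clec-63 shared a peak with the element, with a signal of 62.8, and 38.0 and 24.3 in replicates 1 and 2. The peak of cyp-33C6/cyp-33C7 had 57.6, with 32.7 and 21.7 in the replicates, that of fbxa-76/fbxa-77 had 46.4, with 29.1 and 15.6, and that of bath-26/bath-47 had 36.6, with 32.7 and 9.30. Of these 4, the element was at clec-62/clec-63 and bath-26/bath-47. Members of these families are close in sequence.

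Of the 14 pairs with 2 divergent peaks, named after their values were seen, the strongest was nhr-80/H10E21.1, a nuclear hormone receptor gene of fat desaturation with its neighbour. Its summits were 583 bp apart and had signals of 85.5 and 66.6, and the element was at the weaker. The pair srj-49/ugt-53 had 83.2 and 63.2, 548 bp apart, with the element at the stronger. The gap junction genes inx-15/inx-16 had 66.0 and 61.3, 709 bp apart within a spacing of 922 bp.

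Genes of small RNAs were also present in a few of these windows. The 5′ end of a snoRNA gene was in range of 19 of 592 divergent peaks (3.21%, 1.94 to 4.97) and of 35 of 2161 promoter peaks of one strand (1.62%, 1.13 to 2.25). A tRNA gene was in range of 6 divergent peaks (1.01%) and 39 of the others (1.80%), and a miRNA gene of 3 and 12. The separate intervals of both classes overlap for each of these kinds. That does not decide whether the shares differ, and no interval of the difference was computed.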

How the data were processed

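The authors deposited peak lists in the narrowPeak format: a relaxed list for each of 2 biological replicates and for both pooled, and an optimal list kept by the irreproducible discovery rate, per the labels and accompanying descriptions. The signal value is a score deposited by the authors, with no stated scale, and values of different lists were compared by rank alone. The authors also deposited q values as −log10, and all 5560 optimal peaks share 1 value. The summit position within each peak is a further deposited column. For the aligner, peak caller and threshold, names and values were not given in the sources used here. A control library and signal tracks were not analysed here. Peak lists hold no reads, so depth is unknown, and intervals cover counting error only and treat neighbouring peaks as independent.

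Positions on ce11 were joined to WBcel235 genes of Ensembl release 115, with no conversion between builds; the ce10 lists were not used. A gene has 1 5′ end, that of its gene record. Shares carry exact 95% binomial intervals, and differences of shares 95% Newcombe intervals, called where they exclude 0. Replicate peaks counted as overlapping from 1 bp. Replicates alone mean the strongest 5560 peaks of 1 relaxed list. Motif windows took in 50 bp on each side of a summit and both strands. Tiles are adjoining windows of that length. Named genes are those at the 20 strongest divergent peaks, up to 3 strongest pairs for each of 20 lists, up to 12 pairs within a list, and the 5 strongest with and without the element, with exceptions stated. The members, lists, motifs and alternatives were chosen with earlier results of these data known. Scripts were tested on simulated data. Python 3.11.15 was used with numpy 2.4.6, pandas 2.3.3, scipy 1.17.1 and matplotlib 3.10.9.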

Additional observations from a re-analysis of the deposited data

How the results depend on the processing

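With promoters of 500 bp upstream and 100 bp downstream there were 342 divergent peaks, a density ratio of 3.03, a shared peak in 19.6% of pairs, a median distance of 126 bp to the nearer 5′ end and 92.7% of summits between head-to-head ends. With 2000 and 500 bp there were 967 peaks, a ratio of 1.957, 24.3% of pairs and a distance of 165 bp, and the difference in the strongest 25% was -1.49 points with an interval that included 0. The stronger 50% of peaks gave 266 divergent peaks, a ratio of 2.16, 10.2% of pairs and a replicate 2 difference of 0.512 points. Fewer peaks or other window lengths change these counts by construction. Summits between head-to-head ends alone gave a ratio of 3.36 and 20.2% of pairs, and 5′ ends of all transcripts put 94.1% of summits between such ends. Without a replicate, divergent peaks numbered 421 to 598, the ratio was 1.88 to 2.46, the share of pairs 15.9% to 22.6% and the difference in the strongest 25% -4.12 to -2.998 points, with intervals that included 0. The overlap of replicate 2's strongest peaks with replicate 1, added after the data were seen, differed by 3.10 points, opposite in direction to the difference on the whole optimal list; the cause was not tested. The difference in the element had an interval below 0 under all 10 alternatives, from -14.9 to -7.29 points. The replicate 2 difference could not be computed without a replicate, nor the share of summits between head-to-head ends among those summits alone. No paired analysis was possible because there is 1 group.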
